A study of Homo sapiens with 3 samples.

Results

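The genes described here are 35 genes of mitosis and the G2/M transition, of 58735 genes measured in all. They were taken by name from a list of mitotic kinases, cyclins, checkpoint proteins, kinesins and centromere proteins, matched to the identifiers of the files through GENCODE release 29, and the rule itself uses no measured value. All 35 were matched. FPKM values are reads per gene scaled by exon length and by a divisor for each library, which here is not its number of assigned reads. Averaged over the 3 libraries, 34 members reached 1 FPKM and were tested, and UBE2C stayed below it.

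Cells enter mitosis when cyclin B and CDK1 are activated by CDC25 phosphatases. Aurora and Polo kinases then build the spindle with kinesins and microtubule-binding proteins, while the spindle checkpoint holds the anaphase-promoting complex (APC/C) until every kinetochore is attached. Most of these genes are transcribed late in the cell cycle, through promoters known for the cell cycle homology region (CHR) and for CCAAT boxes, which bind the MuvB complexes (with the repressor DREAM subunits, or with B-MYB and FOXM1) and NF-Y. In bulk RNA their levels follow both the share of cells in G2 and mitosis and the RNA per cell, which cannot be told apart.

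The study sequenced total RNA of cells labelled KG1a, a line derived from an acute myeloid leukaemia. In 2 libraries the cells had received a lentivirus with a short hairpin RNA that targets the ubiquitin ligase gene TRAF7, and are called knockdown 1 and 2. In 1 library, the control, they had received a lentivirus with a control hairpin. The labels do not say whether the knockdown libraries carry the same hairpin or come from separate cultures, so p-values measure only the spread between these libraries, which may be technical.

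Assigned reads numbered 16221721 and 16254461 in the knockdown libraries and 16014485 in the control. TRAF7 was at 15.6 and 18.3 FPKM in knockdown 1 and 2, against 46.5 in the control (log2 fold change −1.41 ± 0.19, SE; limma adjusted p = 0.274, limma-voom on recovered reads 2.69e-05). The markers listed for KG1a were split, and the best known of them was nearly absent. CD34, the surface antigen for which KG1a is best known, had 1 and 10 reads in the knockdown libraries and 0 in the control, where 3 reads would be 0.019 FPKM. Of 8 markers listed for KG1a, FLT3 and PROM1 had 0 reads in all 3 libraries, and MPO and ITGA4 had at most 5 in any. The general leukocyte antigen PTPRC was at 5.60 and 6.53 FPKM in the knockdown libraries and 9.54 in the control, and the myeloid antigen CD33 at 2.66 and 5.48 against 5.37. The summed level of the 8 was 53.6 and 45.1 FPKM in the knockdown libraries and 61.2 in the control, mostly from SPN. All 6 erythroid markers had reads in every library, with a summed level of 156.0 and 133.2 FPKM in the knockdown libraries and 57.5 in the control. GATA1, a transcription factor of the red cell lineage named here after its values were seen, was at 104.5, 115.6 and 128.5 FPKM in knockdown 1, knockdown 2 and control. Lymphoid markers (7 listed) summed to 6.24 and 8.45 FPKM in the knockdown libraries and 9.55 in the control, and stromal and epithelial markers (8 listed) to 183.5 and 178.3 against 167.8, mostly from the keratins KRT8 and KRT18. The part of these other cell markers in the results below was not tested.

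Most mitosis genes were moderately higher in both knockdown libraries, and none passed the test across all genes. Of the 34 members tested, 28 were higher than the control in both knockdown libraries, 2 were lower in both and 4 were on either side. Both comparisons use the same control library, so agreement between them is not independent. Among all 12640 genes tested, 42.5% were higher in both and 30.8% lower in both. Among the 9897 protein-coding genes tested these shares were 46.5% and 27.8%. Among the 7117 genes averaging at least 5 FPKM they were 53.5% and 22.4%, and 27 of the 33 members at that level were higher in both. The median log2 fold change of the members was 0.26 in knockdown 1, 0.31 in knockdown 2 and 0.30 in the fit to all libraries, and that of all genes tested was 0.06, 0.03 and 0.04. Fold changes here are differences of log2(FPKM + 1), a scale that shrinks the change of weakly expressed genes. The members ran from −0.11 for CENPE to 0.59 for CCNB1. Scaled to all assigned reads instead, 24 members were higher in both and 4 lower (median 0.20), where 29.8% of all genes were higher, and of the genes on the same side in both libraries 40.6% were higher, against 58.0% at the authors' scaling. After quantile normalization the members' median was 0.16. The sign of CDC25B, CENPF, HMMR and TOP2A turned under both of these settings, and that of KIF23 under scaling to all assigned reads.

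By limma with an intensity trend, 0 members passed an adjusted p of 0.05, as did 0% of all genes tested. CCNB1 had the lowest adjusted p, 0.443. At an unadjusted p under 0.05 there were 9 members, all higher, where 5.46% of all genes were higher and 3.73% lower. When limma-voom was run on the recovered reads, 0 members passed either (lowest adjusted p = 0.144), where 0.206% of genes were called higher and 0.659% lower, with 11 higher at an unadjusted p under 0.05, where 5.73% of genes were. In 22 of 34 members the exact 95% Poisson interval of both knockdown libraries lay above that of the control, against 16% of all genes, and in 0 members below it, against 7.81%. Among protein-coding genes tested these shares were 19.7% and 8.60%. Such intervals cover counting error only, and they separate more readily at higher read numbers. No share at matched read numbers was taken. In 20 members the control stood, in FPKM, farther below the nearer knockdown library than the knockdown libraries stood from each other, against 22.2% of all genes. The single control was taken to vary as the knockdown pair does, since 1 residual degree of freedom comes from that pair.

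**Figure D1:**
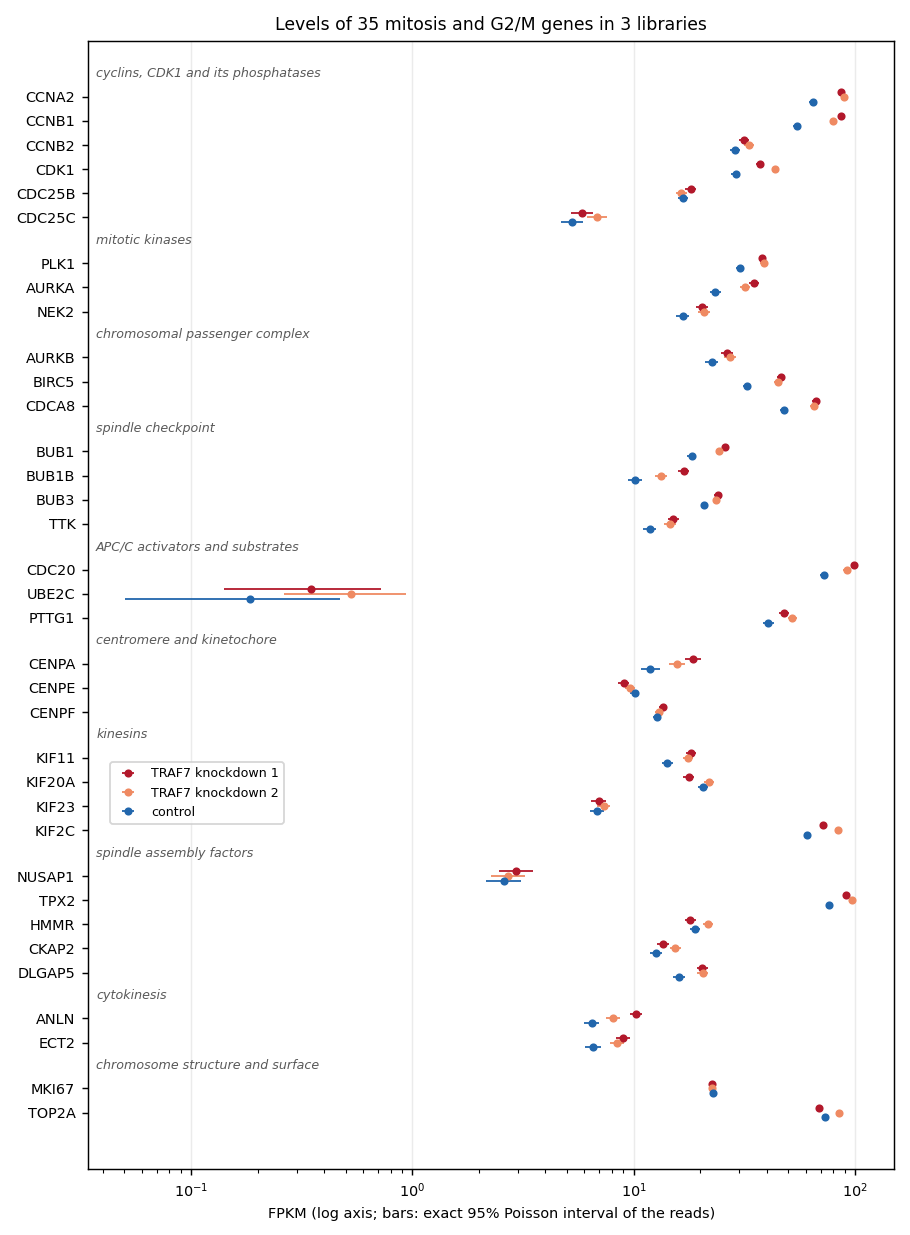
FPKM (log axis) of the 35 members in knockdown 1 (dark red), knockdown 2 (orange) and control (blue), grouped by role, with exact 95% Poisson intervals of the reads as bars. For 28 of the 34 members tested both knockdown points lie right of the control; the MKI67 points of all 3 libraries lie together, and UBE2C lies far below every other member.

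Per exon length, the most abundant members over the 3 libraries were TPX2 and CDC20, with means of 88.2 and 87.9 FPKM, followed by CCNA2 with 79.99 FPKM and TOP2A with 75.5. At the low end stood UBE2C with 0.353 FPKM, NUSAP1 with 2.75 and CDC25C with 5.99. Together the 35 genes took 0.430% and 0.463% of assigned reads in knockdown 1 and 2 and 0.398% in the control.

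RefSeq promoter windows on GRCh38.p14, from 250 bases before to 50 bases after a start site, were at hand for 29 of the members, in 39 windows. AURKA, BIRC5, BUB3, TPX2, TTK and UBE2C had none. The letters TTTGAA, a form of the CHR, were found on either strand in 53.8% of the 39 windows, against 10.04% of 11784 windows of the genes tested. The form TTTAAA was in 35.9% of the members' windows against 7.85%, and TTCGAA was in 5.13% against 1.76%. At least 1 of these forms was in 30 of the 39 windows (76.9%), against 17.8% of the windows of the genes tested and 25.1% of all 35116 windows. CCAAT, on either strand, was found in 29 (74.4%), against 35.3% and 34.6%. Both kinds were present in 61.5% of the members' windows and in 7.15% of those of the genes tested. GGCGGGA, an E2F-like run, was in 23.1% of the members' windows and 24.3% of those of the genes tested. A CHR form began within 70 bases before the start in 51.3% of the members' windows and 4.17% of those of the genes tested. That distance was chosen after the positions were seen. The 178 windows of other mitosis genes, listed below by function, held a CHR form in 43.8%, CCAAT in 48.9% and both in 27.0%. In these windows GGCGGGA was found in 38.2%, and a CHR form began within 70 bases before the start in 16.9%.

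Printed here are the 120 bases just before the start for 8 members with a single window: the 4 with the lowest p in the limma fit and, of the members not higher in both knockdown libraries, the 4 most abundant, so that promoters of genes with and without a difference can be read side by side. Capitals mark the CHR forms and CCAAT or its reverse complement ATTGG; where TTTGAA runs into ATTGG the 2 overlap. CCNB1 is at chr5:69167030-69167149 (plus strand), CDCA8 at chr1:37692396-37692515 (plus), CCNA2 at chr4:121823884-121824003 (minus) and CDC20 at chr1:43358861-43358980 (plus). TOP2A is at chr17:40417897-40418016 (minus), MKI67 at chr10:128126424-128126543 (minus), KIF20A at chr5:138178992-138179111 (plus) and HMMR at chr5:163460512-163460631 (plus).
CCNB1: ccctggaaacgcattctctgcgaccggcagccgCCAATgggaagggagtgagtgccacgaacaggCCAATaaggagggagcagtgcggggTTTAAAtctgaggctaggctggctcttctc
CDCA8: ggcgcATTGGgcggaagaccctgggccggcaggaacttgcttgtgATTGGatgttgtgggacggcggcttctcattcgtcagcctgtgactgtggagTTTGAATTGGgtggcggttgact
CCNA2: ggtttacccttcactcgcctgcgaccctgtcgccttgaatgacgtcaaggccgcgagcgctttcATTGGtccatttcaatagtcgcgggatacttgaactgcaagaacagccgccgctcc
CDC20: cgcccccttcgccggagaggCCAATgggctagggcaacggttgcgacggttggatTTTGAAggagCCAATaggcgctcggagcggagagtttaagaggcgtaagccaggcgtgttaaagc
TOP2A: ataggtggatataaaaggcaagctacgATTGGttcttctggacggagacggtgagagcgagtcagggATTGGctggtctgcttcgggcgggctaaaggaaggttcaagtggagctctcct
MKI67: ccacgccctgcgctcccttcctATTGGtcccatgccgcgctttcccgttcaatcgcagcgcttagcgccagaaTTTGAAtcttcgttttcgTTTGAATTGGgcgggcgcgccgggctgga
KIF20A: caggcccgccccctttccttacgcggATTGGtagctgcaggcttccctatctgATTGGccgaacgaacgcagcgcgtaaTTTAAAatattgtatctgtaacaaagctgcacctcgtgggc
HMMR: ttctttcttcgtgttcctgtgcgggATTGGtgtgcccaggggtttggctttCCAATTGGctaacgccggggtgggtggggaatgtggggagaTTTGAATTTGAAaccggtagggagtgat

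The first 4 printed had log2 fold changes of 0.40 to 0.59, and the last 4 of −0.06 to 0.06, a contrast that follows from how they were chosen. Both sets hold the letters: CCNB1, CDCA8 and CDC20 carry a CHR form and CCAAT in these 120 bases, and so do MKI67, KIF20A and HMMR, while CCNA2 and TOP2A carry CCAAT only. Over the 29 members with a window, the 25 with a CHR form in at least 1 window had a median log2 fold change of 0.32, with 19 higher in both knockdown libraries. The 4 without any of the searched forms (AURKB, CCNA2, CKAP2 and NEK2) had a median of 0.26 and were all higher in both. A match is a run of letters and not a measured binding site.

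**Figure D2:**
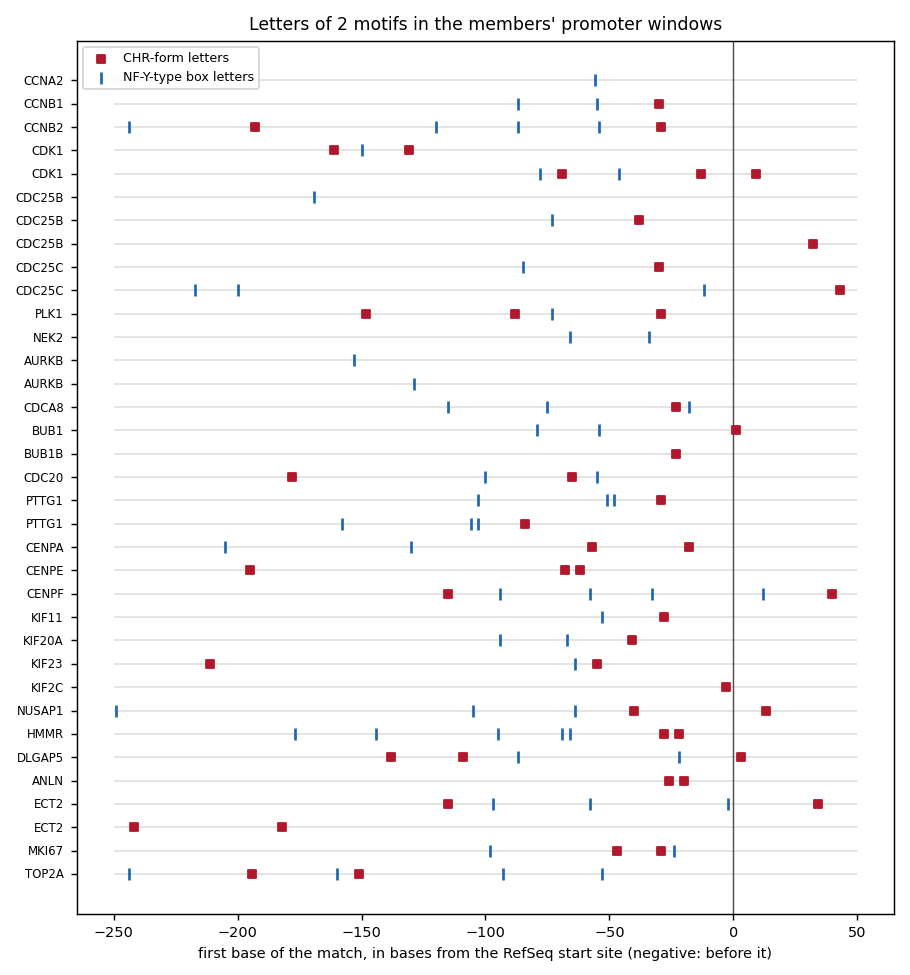
Position of CHR forms (red squares) and of CCAAT on either strand (blue ticks), as the first base of each match in bases from the RefSeq start site, in the 35 of 39 members' windows that hold at least 1 of them. Squares gather in the 70 bases before the start, where 26 of the 51 CHR matches lie.

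Of the cyclins, CDK1 and the CDC25 phosphatases, 5 of 6 were higher in both knockdown libraries, and the cyclin genes among them differed in size. CCNB1, the cyclin that activates CDK1 at mitotic entry (ENSG00000134057, chromosome 5, 69167010 to 69178245, plus strand, GRCh38), was at 86.7 FPKM in knockdown 1 and 79.9 in knockdown 2, against 54.8 in the control. The knockdown libraries stood at 158% and 146% of the control, apart from it by far more than from each other (log2 fold change 0.59 ± 0.16, SE; limma adjusted p = 0.443). This was the only member past an adjusted p of 0.05 under any setting tried, with no filter on low values (0.0432), where 55.1% of the genes fitted had equal values in both knockdown libraries. CCNA2, the cyclin of S phase and G2 (chromosome 4, 121816444 to 121823933, minus strand), was at 86.4 and 89.03 FPKM in the knockdown libraries and 64.6 in the control (0.44 ± 0.15, SE; limma adjusted p = 0.505). Its exons share 9.08% of their bases with EXOSC9 on the other strand. CCNB2, the other B-type cyclin, was at 31.7 and 33.2 FPKM in the knockdown libraries and 28.7 in the control, and the Poisson interval of knockdown 1 overlapped that of the control while that of knockdown 2 lay above it.

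CDK1, the kinase itself, was at 37.4 and 43.7 FPKM in knockdown 1 and 2 and 28.96 in the control (log2 fold change 0.47; limma adjusted p = 0.537). The phosphatase members CDC25B and CDC25C stood nearer the control. CDC25C was at 5.83 and 6.85 FPKM in the knockdown libraries and 5.29 in the control, and CDC25B at 18.2 and 16.4 in the knockdown libraries and 16.7 in the control, between them. The log2 fold change of CDC25B was 0.05 ± 0.18 (SE; limma adjusted p = 0.962).

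The mitotic kinases outside the checkpoint were all higher in both knockdown libraries, with 3 of 3 Poisson intervals above the control. AURKA, the centrosomal Aurora kinase (chromosome 20, 56369389 to 56392337, minus strand), was at 35.1 and 31.9 FPKM in the knockdown libraries and 23.4 in the control (log2 fold change 0.50 ± 0.18, SE; limma adjusted p = 0.509). PLK1, the Polo kinase that drives mitotic entry and spindle formation (chromosome 16, 23677656 to 23690367, plus strand), was at 38.2 and 38.8 FPKM in the knockdown libraries and 30.3 in the control (0.33 ± 0.17, SE; limma adjusted p = 0.599). In PLK1 the knockdown libraries lay almost on each other. NEK2, a kinase of centrosome separation, was at 20.3 and 20.9 FPKM against 16.7 in the control.

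The 3 members of the chromosomal passenger complex, which corrects faulty attachments at the centromere, were all higher in both knockdown libraries. CDCA8, which encodes borealin (chromosome 1, 37692418 to 37709719, plus strand), was at 66.6 and 65.4 FPKM in the knockdown libraries and 47.8 in the control (log2 fold change 0.46 ± 0.16, SE; limma adjusted p = 0.4996). BIRC5, which encodes survivin (chromosome 17, 78214186 to 78225636, plus strand), was at 46.3 and 44.97 FPKM in the knockdown libraries and 32.5 in the control (0.48 ± 0.17, SE; limma adjusted p = 0.4997). The kinase of the complex, AURKB, differed less, with 26.5 and 27.2 FPKM in the knockdown libraries and 22.5 in the control (0.24; limma adjusted p = 0.701). In all 3 genes the knockdown libraries were closer to each other than to the control.

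All 4 spindle checkpoint members were higher in both knockdown libraries, with Poisson intervals above the control. BUB1B, which encodes BUBR1, an inhibitor of the APC/C (chromosome 15, 40161023 to 40221136, plus strand), was at 16.9 and 13.3 FPKM in knockdown 1 and 2 and 10.1 in the control (log2 fold change 0.52 ± 0.21, SE; limma adjusted p = 0.542). Knockdown 1 stood farther above the control than knockdown 2 did. BUB1, the kinetochore kinase (chromosome 2, 110637698 to 110678114, minus strand), was at 26.01 and 24.4 FPKM in the knockdown libraries and 18.3 in the control (0.44 ± 0.18, SE; limma adjusted p = 0.541). TTK, the kinase known as MPS1 that starts checkpoint signalling, was at 15.1 and 14.6 FPKM against 11.8 in the control. BUB3, the partner that brings BUB1 and BUBR1 to kinetochores and is made through the whole cell cycle, had the smallest difference of the 4, at 23.95 and 23.6 FPKM in the knockdown libraries and 20.9 in the control (0.18; limma adjusted p = 0.780).

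CDC20, the activator of the APC/C that the checkpoint restrains (chromosome 1, 43358955 to 43363203, plus strand), was at 99.5 and 91.97 FPKM in the knockdown libraries and 72.3 in the control (log2 fold change 0.40 ± 0.16, SE; limma adjusted p = 0.536). PTTG1, which encodes securin, an APC/C substrate, was at 47.7 and 52.1 FPKM in the knockdown libraries and 40.7 in the control (0.29 ± 0.17, SE; limma adjusted p = 0.653). Both genes were clear of the control by more than the knockdown libraries differed. UBE2C, the ubiquitin-conjugating enzyme of the APC/C (chromosome 20, 45812576 to 45816957, plus strand), had only 7 and 11 reads in the knockdown libraries and 4 in the control, or 0.3497, 0.526 and 0.184 FPKM, with overlapping Poisson intervals. It was not tested. None of its exon bases lies in the exons of another annotated gene. Of its 4 processed pseudogenes UBE2CP2 had 3, 11 and 17 reads and UBE2CP1 had 1, 5 and 1 in knockdown 1, knockdown 2 and control, so the split of reads among these copies is uncertain.

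**Figure D3:**
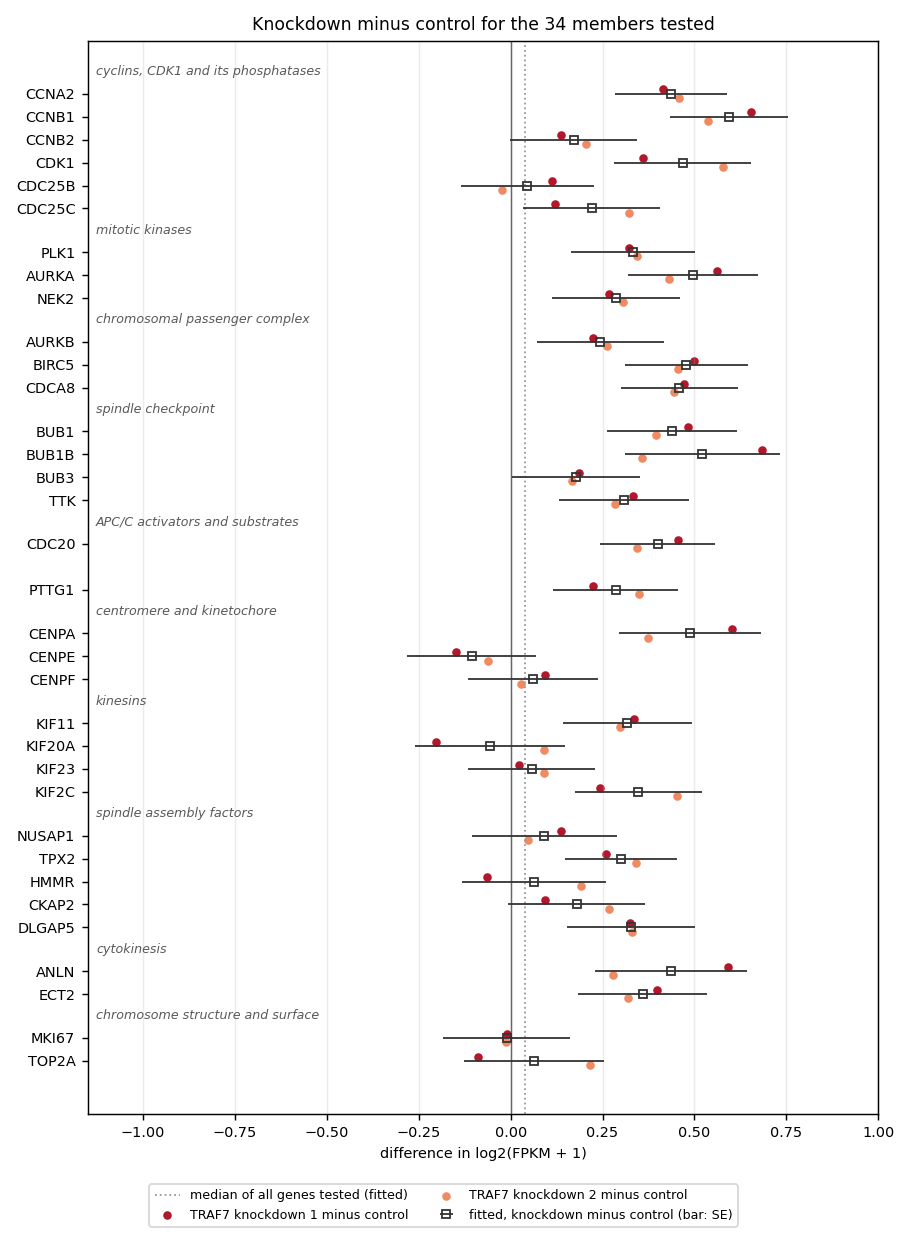
Difference in log2(FPKM + 1) from the control for knockdown 1 (dark red), knockdown 2 (orange) and the fit (open squares, bars are SE) of the 34 members tested, with the median of all genes tested as a dotted line. The members that sit at or around 0 are CENPE, CENPF, KIF20A, KIF23, HMMR, MKI67, TOP2A, CDC25B and NUSAP1; the kinases, passenger and checkpoint members stand to the right.

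The centromere members split. CENPA, the histone H3 variant that marks centromeres (chromosome 2, 26764289 to 26801067, plus strand), was at 18.6 and 15.7 FPKM in knockdown 1 and 2 and 11.9 in the control (log2 fold change 0.49 ± 0.19, SE; limma adjusted p = 0.538). CENPE, a kinesin that carries chromosomes to the spindle equator, was at 9.03 and 9.66 FPKM in the knockdown libraries and 10.1 in the control, lower in both (−0.11 ± 0.18, SE; limma adjusted p = 0.883). CENPF, a large kinetochore protein of the outer layer, was at 13.6 and 12.97 FPKM in the knockdown libraries and 12.7 in the control (0.06; limma adjusted p = 0.942). For CENPE and CENPF the Poisson intervals of at least 1 knockdown library overlapped that of the control.

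Of the 4 members grouped as kinesins, without CENPE, 3 were higher in both knockdown libraries and 2 of these had Poisson intervals above the control. KIF2C, which encodes the microtubule depolymerase MCAK, was at 72.1 and 83.6 FPKM in the knockdown libraries and 60.8 in the control (log2 fold change 0.35 ± 0.17, SE; limma adjusted p = 0.590). KIF11, which encodes Eg5, the motor that pushes spindle poles apart, was at 18.2 and 17.7 FPKM in the knockdown libraries and 14.2 in the control (0.32 ± 0.18, SE; limma adjusted p = 0.627). The motors of the central spindle showed no such gap. KIF20A was at 17.7 and 21.9 FPKM in knockdown 1 and 2, on either side of the 20.6 of the control (−0.06 ± 0.20, SE; limma adjusted p = 0.957), and KIF23 at 6.95 and 7.32 FPKM against 6.82.

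The spindle assembly factors ran from TPX2 and DLGAP5, clear of the control in both knockdown libraries, to HMMR, which was not. TPX2, which activates Aurora A on the spindle (chromosome 20, 31739271 to 31801805, plus strand), was at 91.4 and 96.9 FPKM in the knockdown libraries and 76.3 in the control (log2 fold change 0.30 ± 0.15, SE; limma adjusted p = 0.602). DLGAP5, a microtubule stabiliser of the spindle, was at 20.4 and 20.5 FPKM against 16.1 in the control (0.33 ± 0.17, SE; limma adjusted p = 0.618). CKAP2, a microtubule-associated protein, was at 13.6 and 15.4 FPKM against 12.7 in the control (0.18). HMMR, a spindle pole protein also known as a hyaluronan receptor, was at 18.1 and 21.7 FPKM in knockdown 1 and 2, on either side of the 18.9 of the control (0.06 ± 0.20, SE; limma adjusted p = 0.945). NUSAP1, a microtubule-bundling protein, was at 2.95 and 2.72 FPKM against 2.60 in the control, and 62.2% of its exon bases are shared with the gene AC087721.2 on the same strand, which had 0 reads in all 3 libraries. The sources used here do not give how the counting treated such shared bases, so the low level of NUSAP1 is uncertain.

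Both cytokinesis members were higher in both knockdown libraries. ANLN, which encodes the contractile ring scaffold anillin, was at 10.3 and 8.08 FPKM in knockdown 1 and 2 and 6.48 in the control (log2 fold change 0.44 ± 0.21, SE; limma adjusted p = 0.584). ECT2, the exchange factor that activates RhoA at the division plane, was at 8.96 and 8.43 FPKM in the knockdown libraries and 6.56 in the control (0.36 ± 0.17, SE; limma adjusted p = 0.588). In FPKM, the knockdown libraries of ANLN differed from each other by more than knockdown 2 did from the control.

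MKI67 and TOP2A, widely used as labels of dividing cells, were not higher in both knockdown libraries. MKI67, which encodes the Ki-67 coat protein of mitotic chromosomes (chromosome 10, 128096659 to 128126385, minus strand), was at 22.72 and 22.67 FPKM in the knockdown libraries and 22.88 in the control, on 4529, 4722 and 4948 reads (log2 fold change −0.01 ± 0.17, SE; limma adjusted p = 0.990). It was at 99.3% and 99.1% of the control, with overlapping Poisson intervals. TOP2A, the topoisomerase that untangles sister chromatids (chromosome 17, 40388516 to 40417950, minus strand), was at 68.5 FPKM in knockdown 1 and 84.96 in knockdown 2, on either side of the 73.0 of the control (0.06 ± 0.19, SE; limma adjusted p = 0.944).

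The 3 members with the longest exons stood at or near the control. These, over 9 kb of summed exon length, MKI67, CENPF and CENPE, had a median log2 fold change of −0.01, while the 9 members of 2 to 3 kb had one of 0.40, the 9 of 3 to 4 kb 0.30, the 7 of 4 to 6 kb 0.32 and the 5 of 6 to 9 kb 0.18. Among all protein-coding genes tested the median was lower in each longer class: 0.19 for 855 genes under 2 kb, 0.13 for 1277 of 2 to 3 kb, 0.11 for 1454 of 3 to 4 kb, 0.06 for 2519 of 4 to 6 kb, 0.03 for 2294 of 6 to 9 kb and −0.02 for 1498 over 9 kb. In both sets the log2 fold change was lower at greater log2 exon length, with Pearson r = −0.51 across the 34 members and −0.19 across 9897 protein-coding genes. With log2 mean FPKM the correlation was 0.37 across the members and 0.35 across the protein-coding genes. The G1/S and replication genes, a comparison list, showed no such order from 2 to 9 kb. Their medians were 0.40 at 2 to 3 kb, 0.51 at 3 to 4 kb, 0.55 at 4 to 6 kb and 0.57 at 6 to 9 kb (7, 4, 10 and 3 genes). The 1 gene of that list under 2 kb, PCNA, had 0.72. That list has no gene over 9 kb, the class in which the members stood nearest the control. These are correlations across genes of the same 3 libraries, which are not independent replicates. Reads on genes annotated as sense intronic made up 0.0448% and 0.0475% of assigned reads in knockdown 1 and 2 and 0.0553% in the control. The part of exon length, abundance and intronic reads in the members' values was not tested.

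**Figure D4:**
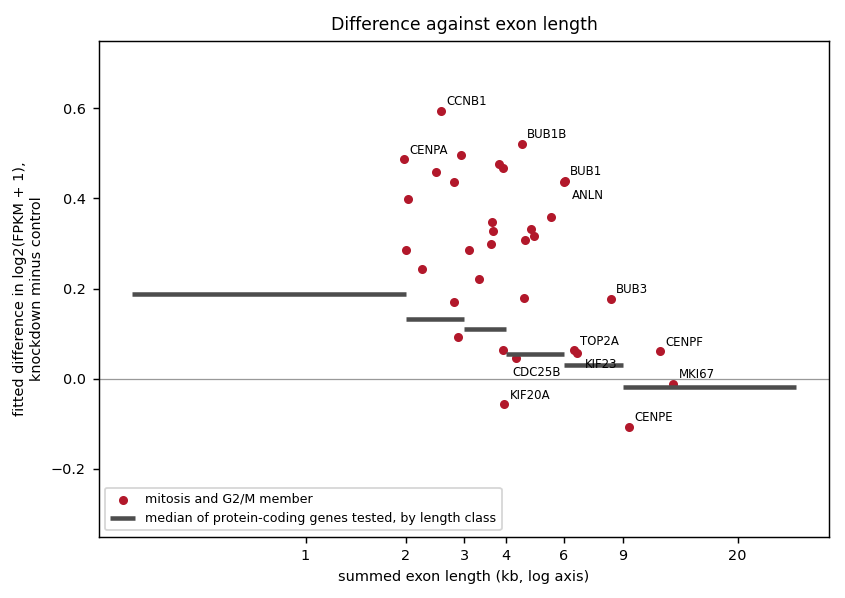
Fitted difference in log2(FPKM + 1), knockdown minus control, against summed exon length (log axis) for the 34 members tested (red), with the median of the protein-coding genes tested in 6 length classes as grey bars. The grey bars step down from 0.19 to −0.02; most members lie above the bar of their class, and MKI67, CENPF and CENPE lie near that of the longest class.

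Of the other genes of the mitotic machinery, listed by function in 12 lists, 120 of 144 tested were higher in both knockdown libraries and 6 lower, with a median log2 fold change of 0.22, where 42.5% of all genes tested (46.5% of protein-coding genes) were higher and 30.8% lower. At an adjusted p of 0.05, limma called 0 of the 144 and limma-voom called 0, and 22 higher and 1 lower had an unadjusted p under 0.05, as did 5.46% and 3.73% of all genes. Checkpoint partners had a median of 0.40 and tubulins one of 0.53, above the other lists. Condensin subunits were higher in both for 8 of 8 and inner centromere proteins for 18 of 18, with medians of 0.27 and 0.23. Cohesin and separase genes had a median of 0.10, with 9 of 12 higher in both, and spindle and centrosome genes one of 0.14, with 11 of 21 (52.4%), near the share of all protein-coding genes.

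Among regulators, MYBL2, which encodes B-MYB, an activator of the members' promoters, was at 86.7 and 85.5 FPKM in the knockdown libraries and 53.4 in the control (log2 fold change 0.68; limma adjusted p = 0.403). TFDP1, the partner of the E2F factors, was at 39.1 and 33.4 FPKM against 26.2 in the control (0.45). The regulators were higher in both knockdown libraries for 9 of 10 tested, with a median of 0.18. Poisson intervals of both knockdown libraries lay above the control in 3 of them, or 30%, against 16% of all genes. FOXM1, named above with B-MYB, was at 10.2 and 8.64 FPKM in the knockdown libraries and 7.87 in the control. Its log2 fold change was 0.23 (limma adjusted p = 0.737). Of the G2/M entry genes, 13 of 14 were higher in both, among them CKS2, a CDK-binding subunit, at 128.6 and 112.6 FPKM against 74.5 in the control (0.68; limma adjusted p = 0.403) and the phosphatase CDC25A at 21.3 and 19.1 FPKM against 12.8 (0.61).

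At the kinetochore, the centromere proteins CENPW and MIS18A had log2 fold changes of 0.84 and 0.72, with 39.8 and 44.5 FPKM for CENPW in the knockdown libraries against 23.0 in the control (limma adjusted p = 0.403). MAD2L1, the checkpoint protein that binds CDC20, was at 25.02 and 25.3 FPKM against 16.3 in the control (0.60; limma adjusted p = 0.453), and ZWINT, a kinetochore adaptor, at 59.4 and 50.5 against 34.8 (0.64). SPC25 and SPC24, subunits of the outer kinetochore, had 0.45 and 0.41 on the log2 scale, and that list was higher in both knockdown libraries for 11 of 12. NCAPH and NCAPD3 led the condensins with 0.42 and 0.34. CDCA5, which encodes sororin, a protector of cohesion, was at 48.2 and 47.0 FPKM against 31.9 (0.56; limma adjusted p = 0.463), while the cohesin core subunit SMC1A had 0.29.

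Among further spindle genes, TUBB, a beta-tubulin, was at 514.9 and 486.2 FPKM in the knockdown libraries and 338.3 in the control (log2 fold change 0.56 ± 0.11, SE; limma adjusted p = 0.403), and the alpha-tubulin TUBA1B at 235.7 and 187.1 against 139.7 (0.58). Tubulin genes are near-identical in parts, so the split of reads among them is uncertain. KNSTRN and TACC3, which encode spindle proteins, had log2 fold changes of 0.53 and 0.52, RACGAP1 of the central spindle 0.48, RHOA 0.24, and the motors KIF22 and KIFC1 0.43 and 0.35. The list of APC/C subunits and regulators showed a lower median, 0.15, with 12 of 17 higher in both and 2 lower. The subunit gene ANAPC16 was at 11.4 and 14.7 FPKM in the knockdown libraries and 19.5 in the control (−0.55, limma adjusted p = 0.532). The subunit gene CDC26 was at 9.35 and 7.75 FPKM against 5.85 (0.47).

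**Figure D5:**
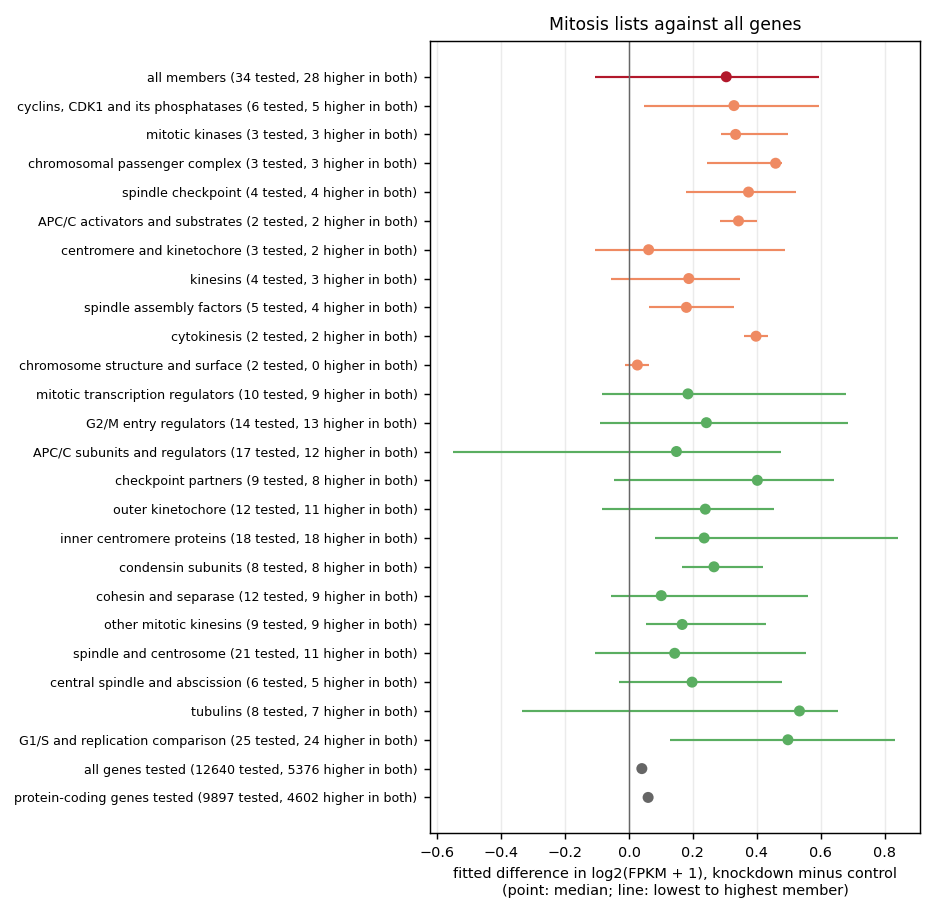
Median (point) and lowest to highest value (line) of the fitted difference in log2(FPKM + 1), knockdown minus control, for the members together (dark red), their role groups (orange), other lists (green) and all genes tested (grey, median only). Points of nearly every list lie right of the grey points at 0.04 and 0.06; chromosome structure and surface (MKI67 and TOP2A) and centromere members lie nearest to them.

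The median difference of the mitosis members was smaller than that of genes of DNA replication. The comparison list of 25 G1/S and replication genes was higher in both knockdown libraries for 24 of 25, with a median log2 fold change of 0.59 in knockdown 1, 0.42 in knockdown 2 and 0.50 in the fit, where the members had 0.26, 0.31 and 0.30. Its leading genes, MCM6 and RFC2, had 0.83 each and were the only 2 of the list called by limma-voom (adjusted p = 0.0228 and 0.0294), where 0 members were. The replication list took 0.519% and 0.471% of assigned reads in knockdown 1 and 2 and 0.373% in the control, where the members took 0.430%, 0.463% and 0.398%. The share of the replication genes was highest in knockdown 1 and that of the members in knockdown 2. The difference between the lists was not tested. The replication list's promoter windows held a CHR form in 16.1% and GGCGGGA in 54.8%, against 76.9% and 23.1% for the members.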

How the data were processed

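The authors deposited 1 file of FPKM values per library, per the file headers, with 58735 Ensembl genes each. Tools named in the submitters' processing notes are BWA and Bowtie, with the build hg19; no counting tool was found there. All identifiers matched GENCODE release 29 (GRCh38), and FPKM times its summed exon length came within 0.05 of a whole read count for 100% of nonzero values checked. Genes with the most reads were left out of that check. The divisors that the deposited FPKM values imply equal median-of-ratios factors over genes with reads in every library, so they already carry that scaling. The rescaling alternative took such factors over the genes tested alone. Coordinates are those of release 29. The main test was limma 3.58.1 (R 4.3.3), fitted to log2(FPKM + 1) with an intensity trend. It covered genes averaging 1 FPKM or more, and Benjamini-Hochberg adjustment ran over all of them; limma-voom covered genes averaging 10 recovered reads or more. Both were tested on simulated data with changes far larger than those of the members, which does not show whether differences of the members' size would be called. The members, the gene lists and the reading of whole reads were chosen with earlier results of these data known. All members are named; of each other list the 2 genes with the lowest p are named, and others only where said. The counting error of each value is given by exact 95% Poisson intervals of the recovered reads, which leave out variation between cultures and library preparations. Other settings tried were other scalings, filters and pseudocounts, no trend, and each knockdown library alone.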

Additional observations from a re-analysis of the deposited data

How the results depend on the processing

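No paired analysis was possible because the control is a single library. The count of 28 members higher in both knockdown libraries was 24 when values were scaled to all assigned reads (all genes: 29.8%), 22 under quantile normalization (38.6%) and 26 under median-of-ratios rescaling over the genes tested (36.4%), and 27 to 29 under the other settings with both libraries; that of members lower in both was 4 under the first 2 and 2 otherwise. Of genes on the same side in both libraries, 58.0% were higher in the main setting and 40.6% when scaled to all assigned reads. The members' median was 0.20 with all assigned reads, 0.16 with quantile normalization, 0.25 with median-of-ratios rescaling and 0.25 with a pseudocount of 5. With either knockdown library left out, the median ran from 0.26 to 0.31, the members higher from 29 to 31 and those lower from 3 to 5; these have no test. With all assigned reads the log2 fold changes turned to −0.055 for CDC25B, −0.037 for CENPF, −0.036 for KIF23, −0.037 for HMMR and −0.041 for TOP2A, with quantile normalization to −0.071 for CDC25B, −0.018 for CENPF, −0.052 for HMMR and −0.18 for TOP2A, and with median-of-ratios rescaling to −0.0043 for CDC25B. With 1 knockdown library left out they ran from −0.022 to 0.11 for CDC25B, −0.20 to 0.089 for KIF20A, −0.064 to 0.19 for HMMR and −0.090 to 0.22 for TOP2A. The number of genes called, 0 in the main setting, was 3 higher at a mean of at least 5 FPKM, 6 higher and 7 lower among protein-coding genes, 31 and 99 by limma-voom, and 419 higher and 1046 lower with no filter, where limma warned of zero variances and 1 member, CCNB1, was called. At 4 to 11 reads, a difference in UBE2C was not detectable at this depth.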
